A study of Homo sapiens with 4 samples.

Results

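Transcripts of SK-BR-3 cells with p53 shRNA alone were set directly against those of SK-BR-3 cells with Pontin siRNA alone, to ask which genes tell the 2 single knockdowns apart. The measure was the log2 difference in signal, the p53 shRNA array minus the Pontin siRNA array, so that a value above 0 means higher with p53 shRNA. Each gene was read from its brightest probe set carrying a single gene symbol, and genes with a mean signal of at least 110 over the 4 arrays of the study were compared. These were 7752 of 19775 genes, called bright genes here, and 2 of 4 arrays entered the difference. The genes just outside this limit were SLC52A3, with a mean of 109.96 and a difference of 0.22, and ZNF316, with 109.99 and -0.81. Just inside it were LIPH, with 110 and 0.09, and HPS6, with 110.03 and -0.16.

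SK-BR-3 is an established human breast cancer line with amplified HER2 and a missense mutation in p53. All 4 cultures were puromycin-selected after transfection with an shRNA construct or its control, named in the labels as control shRNA in one place and as an empty vector in another. The p53 shRNA array came from cells with p53 shRNA and no Pontin siRNA, and its title adds the undefined word sicon. The Pontin siRNA array came from cells with control shRNA and siRNA against Pontin. The control array had control shRNA and sicon, and the combined array had p53 shRNA and Pontin siRNA. RNA was taken 24 h after the siRNA step, and 200 ng was labelled for each array. The selected shRNA and the siRNA of 24 h also differ in how long cells had been exposed, and this cannot be told apart from the gene targeted. There was 1 array for each group, so no difference has a replicate check, no p-value is given, and differences are described by size.

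p53 is a transcription factor whose missense mutants lose binding to many normal targets and can act through other DNA-bound factors. The RUVBL1 gene encodes Pontin, an ATPase of the AAA+ family that forms rings with Reptin, the product of RUVBL2. The rings sit in the INO80, SRCAP and TIP60 chromatin complexes and in the R2TP complex, which helps assemble RNA polymerases, snoRNPs and PIKK kinases. Mutant p53 and Pontin have been described as binding partners.

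The arrays had been scaled to a common level, with a median signal over all probe sets of 16 on the p53 shRNA array and 16.5 on the Pontin siRNA array. The 18 hybridization control probe sets averaged -0.14, and 14 of them were higher on the Pontin siRNA array. Relative to the control array they averaged 1.038 with p53 shRNA, 1.141 with Pontin siRNA and 1.417 on the combined array. The combined array thus stood apart in both measures, and the part of this in comparisons with it was not tested. The ratio of 3′ to 5′ actin probe signal was 3.484 with p53 shRNA and 2.664 with Pontin siRNA, and that of GAPDH was 0.989 and 0.972. The part of this RNA measure in the differences was not tested. Of the 10 luminal breast markers, 9 were bright, with summed signals of 37597.6 to 43127.3 over the 4 arrays. The exception was CDH1, encoding E-cadherin, which SK-BR-3 is known to lack, with signals of 1.8 to 13. None of the listed basal, endothelial or immune markers on the array was bright, and 1 of 7 fibroblast markers was.

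RUVBL1 served as the check of the siRNA label. Its signal was 477.7 on the control array, 398.2 with p53 shRNA, 127.4 after Pontin siRNA and 65.8 with both. The 2 arrays with Pontin siRNA were the lowest, and the p53 shRNA array was 3.13-fold above the Pontin siRNA array, a difference of 1.64. RUVBL2 stood at 2428.2, 2574.7, 2770.6 and 2723.3 in the same order, a difference of -0.11.

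Few bright genes stood far apart. At 2-fold or more, 38 genes were higher with p53 shRNA, 0.49% of those compared, and 29 were lower, 0.374%. At 1.5-fold, which is 0.585 in log2, 250 were higher (3.22%) and 167 lower (2.15%), so that 60.0% of the 417 genes apart were on the p53 shRNA side. Over all bright genes 3868 differences lay above 0 and 3876 below, with an SD across genes of 0.299, so the middle of the distribution had no tilt. The share 1.5-fold apart was 8.51% in the dimmest 1938 genes, with mean signals up to 230.7, and 2.53% in the brightest 1938, from 1060.3. For comparison, 143 genes were 1.5-fold apart between the p53 shRNA array and the control array, and 163 between the Pontin siRNA array and the control array. All 3 counts share arrays and are not independent.

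**Figure D1:**
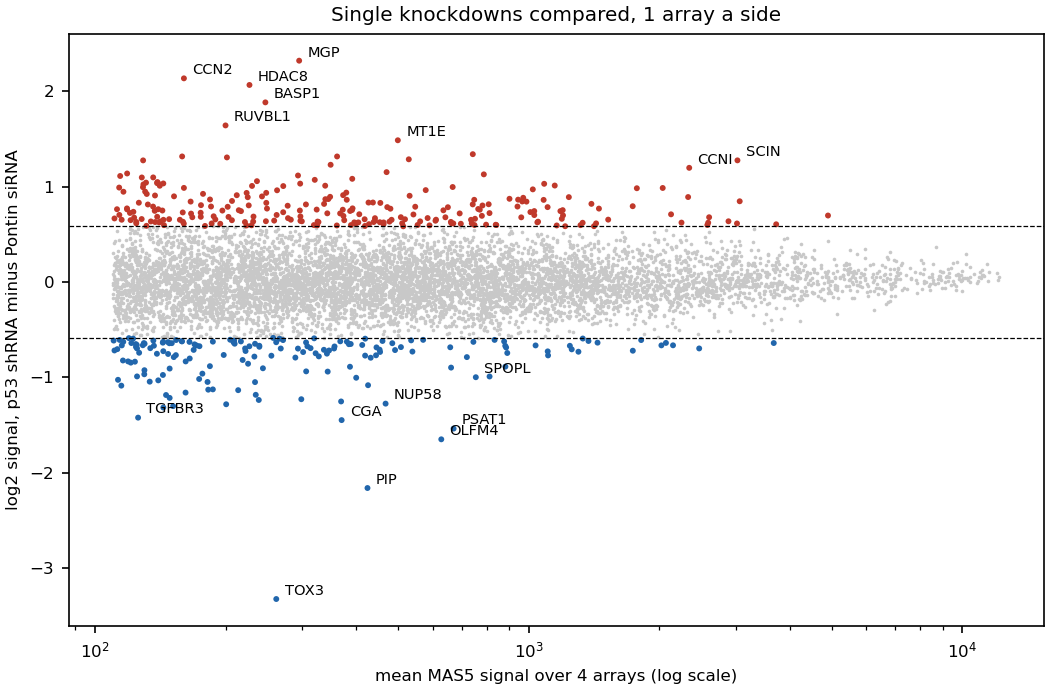
Log2 difference of the p53 shRNA array minus the Pontin siRNA array (vertical axis) against mean MAS5 signal over the 4 arrays (horizontal log axis), 1 point for each of 7752 bright genes; dashed lines mark 1.5-fold. Red points are the 250 genes at least 1.5-fold higher with p53 shRNA and blue points the 167 lower, and TOX3, at -3.32, lies farthest from 0.

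The genes lowest with p53 shRNA were led by products of luminal and apocrine breast cells. TOX3 encodes an HMG-box nuclear protein of luminal breast cancer. Its signal was 1025.5 on the control array, 86.3 with p53 shRNA, 864.4 after Pontin siRNA and 61.2 with both. The 2 arrays with p53 shRNA were far below the 2 without it, and the Pontin siRNA array was 10.02-fold above the p53 shRNA array. In bulk RNA such as this, fewer cells of a type and less RNA per cell cannot be told apart. The other TOX3 probe sets gave differences of -3.38, -3.85 and -0.57, the last on a probe set with a mean signal of 12.3.

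PIP encodes prolactin-induced protein, a secreted apocrine product. PIP signals were 854.0 on the control array, 195.8 with p53 shRNA, 875.0 after Pontin siRNA and 222.2 with both, a difference of -2.16. OLFM4, encoding a secreted glycoprotein of epithelia, had signals of 1316.8, 364.9, 1144.3 and 283.5 in that order, a difference of -1.65. AZGP1, encoding the secreted zinc-alpha-2-glycoprotein, stood at 467.1, 255.5, 608.4 and 255.5, a difference of -1.25. In these 3 genes the combined array lay with the p53 shRNA array, and the control array lay with or nearer to the Pontin siRNA array. The luminal transcription factor gene GATA3 followed the same order at a smaller distance, with 650.5, 334.8, 556.2 and 350.4 and a difference of -0.73. Its other probe sets were at -0.62 and -0.77.

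In the apocrine and secretory list, 8 of 11 bright members were below 0, beside 3876 of all 7752 bright genes. PIP, OLFM4 and AZGP1 were the 3 members 1.5-fold lower, beside 2.15% of all bright genes. The list median was -0.23 against 0.0 over all bright genes. This list was chosen with earlier results of these data known, so its counts describe the members and support nothing further. The list's brightest members stood much closer together: S100A9 was at -0.23 and S100A8 at -0.30. AGR2, which encodes a protein disulfide isomerase of secretory cells, was on the other side at 0.40. Of 16 bright luminal transcription factors, TOX3 and GATA3 were 1.5-fold lower (2.15% of all bright genes were) and none was 1.5-fold higher. The list median was -0.05, and this list too was chosen with earlier results of these data known. The brightest, TFAP2C, was at -0.07, and TRPS1 at 0.15. The list median was 0.02 when each gene was read as the mean of all its probe sets, dim ones included.

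The other side was led by MGP, encoding matrix Gla protein, an inhibitor of calcification. MGP had a signal of 172.5 on the control array, 691.2 with p53 shRNA, 138.1 after Pontin siRNA and 462.5 with both, 5.01-fold higher with p53 shRNA than with Pontin siRNA. The 2 arrays with p53 shRNA were above the others. SCIN, encoding the actin-severing protein scinderin, was at 2381.7, 4818.0, 1987.4 and 3684.0. Its difference was 1.28, and its other probe sets gave 1.71, 1.2 and 0.71. HDAC8, a class I histone deacetylase gene, was at 142.6, 466.0, 111.1 and 359.3, a difference of 2.07, but its probe sets disagreed, the others giving 0.92 and -0.11. COX7B2, a testis-type homologue of a cytochrome c oxidase subunit gene, was at 101.3, 195.6, 80.7 and 173.2, a difference of 1.28.

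**Figure D2:**
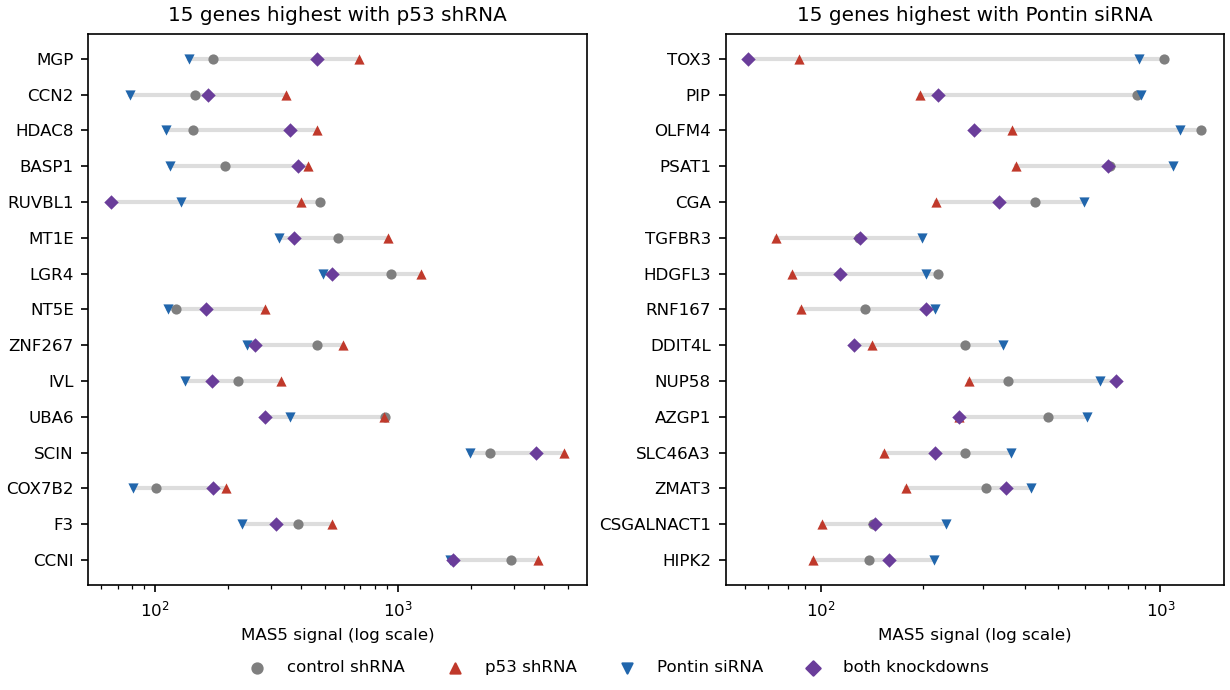
MAS5 signal (log axis) on each of the 4 arrays for the 15 bright genes highest with p53 shRNA against Pontin siRNA and the 15 highest with Pontin siRNA; the grey bar spans the 4 arrays, 1 array a group with no error bar. For TOX3, PIP and OLFM4 the combined array (diamond) sits beside the p53 shRNA array, for LGR4, ZNF267 and CCNI beside the Pontin siRNA array, and for PSAT1 and CCN2 in between.

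The control and combined arrays, which are not in the difference, were used to place each of the 417 genes. On the log2 scale the way from the Pontin siRNA array to the p53 shRNA array was set at 0 to 1, and the share of that way was taken for the other arrays, with limits at 0.3333 and 0.6667 and no outer limit, so that an array beyond either end counts with that end. The p53 shRNA and Pontin siRNA arrays set the scale itself, so the shares describe these arrays and are no independent check. In 55 genes the combined array lay at or toward the p53 shRNA end and the control array toward the Pontin siRNA end, the order of p53 shRNA present or absent. In 115 genes the combined array lay toward the Pontin siRNA end and the control array toward the p53 shRNA end, the order of Pontin siRNA present or absent. The combined array lay beyond the single knockdown array it is placed with in 20 of the 55 and 66 of the 115, RUVBL1 among the latter. In 54 genes both lay between, in 35 the p53 shRNA array stood alone, in 15 the Pontin siRNA array stood alone, and 143 fell elsewhere.

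The Pontin siRNA order held 34.8% of the 250 genes higher with p53 shRNA (87 genes) and 16.8% of the 167 lower genes (28 genes). The p53 shRNA order held 8.8% of the higher genes (22) and 19.8% of the lower genes (33). Among genes higher on the p53 shRNA array, those low on both Pontin siRNA arrays thus outnumbered those high on both p53 shRNA arrays, by 87 to 22. Against the control array at 1.5-fold, among the 250 higher genes 84 were apart on the Pontin siRNA array alone, 32 on the p53 shRNA array alone, 4 on both and 130 on neither. Among the 167 lower genes these counts were 22, 50, 3 and 92. In those 130 and 92 genes the 2 single knockdown arrays were each under 1.5-fold from the control. Being 1.5-fold apart, they then necessarily lie on opposite sides of it.

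**Figure D3:**
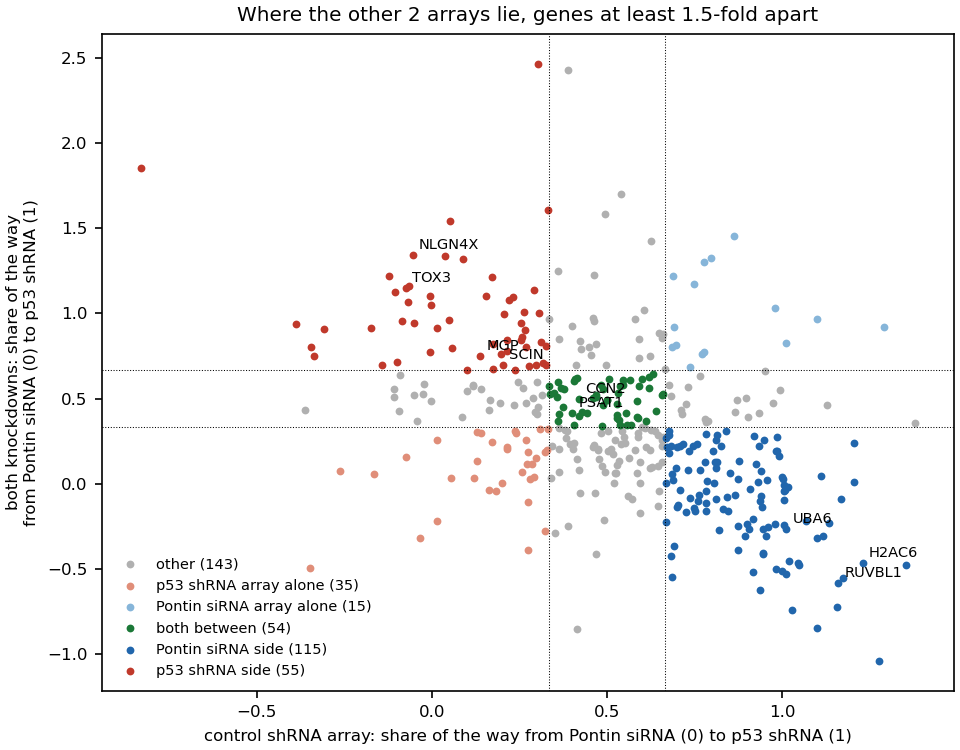
Place of the control array (horizontal axis) and of the combined array (vertical axis) as shares of the log2 way from the Pontin siRNA array (0) to the p53 shRNA array (1), 1 point for each of 417 genes at least 1.5-fold apart; dotted lines mark 0.3333 and 0.6667. The 115 dark blue genes, RUVBL1, UBA6 and H2AC6 among them, fill the lower right, and the 55 red genes, TOX3, MGP and SCIN among them, the upper left.

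Besides RUVBL1, the genes in the Pontin siRNA order included UBA6, encoding an activating enzyme for ubiquitin and FAT10. UBA6 stood at 883.3 on the control array, 874.1 with p53 shRNA, 357.8 after Pontin siRNA and 282.9 with both, a difference of 1.29. All 7 UBA6 probe sets were above 0. LGR4, a receptor for R-spondins that strengthens Wnt signalling, was at 937.3, 1241.5, 489.6 and 534.1, a difference of 1.34. CCNI, encoding cyclin I, was at 2909.0, 3767.9, 1640.9 and 1677.4, a difference of 1.2, with its other probe sets at 0.99 and 1.28. In these genes both Pontin siRNA arrays were below both others, with no overlap. ZNF267, a zinc finger gene, showed the same order at 466.0, 595.8, 238.9 and 256.9, a difference of 1.32.

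Smaller distances in this order were found for ESRP1, an epithelial splicing regulator gene, at 436.4, 436.5, 248.1 and 186.0 and a difference of 0.82, although its second probe set gave 0.20. ID1, encoding an inhibitor of bHLH transcription factors, was at 995.8, 1042.1, 591.5 and 694.5, a difference of 0.82. LYRM7, an assembly factor gene of respiratory complex III, was at 393.8, 376.0, 192.8 and 166.8, a difference of 0.96. The genes higher with Pontin siRNA in this order included CBX1, encoding the heterochromatin protein HP1-beta, at 567.5, 549.3, 947.4 and 908.3 and a difference of -0.79. NUP58, a nuclear pore gene, was at 356.4, 273.8, 662.3 and 738.2, a difference of -1.27, but its other probe sets gave 0.24, 0.42 and -0.20, and the mean of all 4 was -0.20.

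Among subunits of the complexes that hold Pontin, 3 of 30 bright INO80, SRCAP and TIP60 members were 1.5-fold higher with p53 shRNA, beside 3.22% of all bright genes, and none lower. Of the 30, 19 (63.3%) were above 0, beside 49.9% of all bright genes, and the median was 0.10. YEATS4, encoding the histone acetyl-lysine reader GAS41, was at 327.2, 340.3, 183.5 and 124.9, a difference of 0.89, and EPC2, a TIP60 scaffold subunit gene, at 226.7, 233.9, 144.9 and 161.2, a difference of 0.69. Both were lowest on the 2 Pontin siRNA arrays. ACTR8, an actin-related INO80 subunit gene, was instead highest on the 2 p53 shRNA arrays, at 121.1, 187.2, 123.7 and 153.6. Its difference was 0.60, with 0.08 on its second, dimmer probe set. The median turned to -0.04 when genes were read as the mean of all their probe sets, dim ones included. Among 15 bright R2TP and prefoldin-like partners, the shared polymerase subunit gene POLR2E was lower with p53 shRNA at -0.73 and the snoRNP assembly factor gene ZNHIT3 higher at 0.77, with a list median of -0.10. No PIKK or TTT gene of 5 was 1.5-fold apart, beside 5.38% of all bright genes.

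Replication-dependent histone genes have transcripts that are made in S phase and end in a stem-loop. Of 32 on the array 7 were bright, and all 7 were above 0, beside 49.9% of all bright genes, with a median of 0.27. All 7 were below the control array with Pontin siRNA, and 3 of 7 were above it with p53 shRNA. Of all 7752 bright genes, 3876 were above the control with Pontin siRNA and 3786 with p53 shRNA. Only H2AC6, encoding a histone H2A, was 1.5-fold apart, at 541.5 on the control array, 453.0 with p53 shRNA, 208.6 after Pontin siRNA and 145.3 with both, a difference of 1.12. The brightest others, H2BC12 and H1-2, were at 0.27 and 0.42. Histone genes are near-identical copies, and some probe sets may read more than 1 of them, so the 7 are uncertain as separate measurements. Which transcript forms these probe sets read, stem-loop-ended or other, was not tested, so S-phase transcript amounts cannot be read from these signals. The H2AC6 promoter is shown because this gene stood farthest apart of the 7. It lies at chr6:26123922-26124221 on the + strand, in RefSeq's GRCh38.p14, from 250 bases before to 50 after the start. Capitals mark, on either strand, TATAAA (1 match), CCAAT (3) and the octamer ATTTGCAT (1), and 0.201% of the 27305 promoters in the table hold all of them. The matches are letters in a window and are not read as sites.
H2AC6: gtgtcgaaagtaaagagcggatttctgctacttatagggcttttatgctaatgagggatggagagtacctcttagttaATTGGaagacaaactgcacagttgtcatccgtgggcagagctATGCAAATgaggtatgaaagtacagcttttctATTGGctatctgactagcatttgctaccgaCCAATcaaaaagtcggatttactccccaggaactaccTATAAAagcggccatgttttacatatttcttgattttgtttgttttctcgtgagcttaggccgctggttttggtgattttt

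The control array lay strictly between the 2 single knockdown arrays in 210 of the 250 higher genes and 140 of the 167 lower genes. These genes were selected for a wide gap between those 2 arrays, so any other array tends to fall inside it. The combined array did so in 165 of the higher and 132 of the lower genes. In 130 and 92 genes neither single knockdown was 1.5-fold from the control, which places the control between them. The share over all bright genes was not taken, so these counts describe the genes selected and support nothing further. LGR4, CCNI and MGP above share this arrangement. Further genes with it are given next. CCN2 encodes connective tissue growth factor, a matricellular protein and a common readout of YAP and TEAD activity. Its signal was 146.5 on the control array, 346.4 with p53 shRNA, 78.7 after Pontin siRNA and 164.9 with both. The p53 shRNA array was above and the Pontin siRNA array below the control, the combined array was near it, and the difference between single knockdowns was 2.14, or 4.4-fold. CCN2 and BASP1, IVL and MT1E were the 4 higher genes with each single knockdown at least 1.5-fold from the control in opposite directions. BASP1, encoding a membrane-bound signalling protein, was at 194.7, 426.5, 115.4 and 387.6, a difference of 1.89, with the combined array near the p53 shRNA array. IVL, encoding the cornified envelope protein involucrin, was at 219.0, 329.4, 133.0 and 171.0, a difference of 1.31.

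F3, encoding tissue factor, the starter of blood clotting, was at 385.9, 537.2, 228.8 and 313.1, a difference of 1.23. THBS1, encoding the matricellular protein thrombospondin 1 and chosen after its values were seen, was at 867.4, 1150.2, 525.3 and 733.9, a difference of 1.13. Its bright second probe set gave 0.45. NT5E, encoding the ectonucleotidase CD73, was higher chiefly with p53 shRNA, at 122.4, 282.1, 113.1 and 162.3, a difference of 1.32, and its 4 probe sets ran from 0.87 to 1.32. F3 and THBS1 lay above the control with p53 shRNA and below it with Pontin siRNA and in the combination.

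In the list of YAP and TEAD targets, CCN2, F3 and NT5E were the 3 of 15 bright members 1.5-fold higher, beside 3.22% of all bright genes, none was lower, and the median was 0.17. Of the 15, 14 were above the control with p53 shRNA and 6 with Pontin siRNA, beside 3786 and 3876 of all 7752. This list too was chosen with earlier results of these data known, so its counts describe the members and support nothing further. The 2 brightest members, TEAD1 and AMOTL2, were at -0.03 and 0.06, and CCN1, encoding another matricellular protein and named outside the rule, at 0.36. The CCN2 promoter is shown because it carries repeated letters of the TEAD motif. Capitals mark GGAATG on either strand in chr6:131951323-131951622 (- strand, GRCh38.p14). CCN2 has 3 matches, a count reached by 0.146% of the 27305 promoters. The motif occurred at least once in 14% of all promoters and in 10.1% of those of bright genes. Its share was 10.6% for the genes 1.5-fold higher and 10.2% for those 1.5-fold lower, both near that of bright genes. The THBS1 promoter had 1 match, and F3 and NT5E had 0 in this window.
CCN2: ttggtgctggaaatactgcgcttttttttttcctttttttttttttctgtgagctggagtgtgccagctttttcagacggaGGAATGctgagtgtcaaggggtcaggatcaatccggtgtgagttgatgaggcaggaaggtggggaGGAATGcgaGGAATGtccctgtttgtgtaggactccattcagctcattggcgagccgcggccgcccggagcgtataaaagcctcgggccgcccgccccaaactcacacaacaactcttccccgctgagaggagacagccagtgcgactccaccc

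Metallothioneins are small cysteine-rich proteins that bind zinc and copper and are induced by metals through the factor MTF1. The family was picked out after its values were seen, when MT1E appeared among the 15 highest genes, so its count supports nothing further. All 6 bright members of 9 on the array were at least 1.5-fold higher with p53 shRNA, with differences of 0.61 to 1.49 and a median of 0.92. MT2A stood at 5076.5 on the control array, 6101.6 with p53 shRNA, 3758.6 after Pontin siRNA and 4937.9 with both. MT1H was at 2099.8, 2899.0, 1461.7 and 1930.4, and MT1E at 564.0, 910.1, 324.4 and 371.9. In all 6, p53 shRNA was above and Pontin siRNA below the control array. The same order held for MT1X, at 3818.0, 4456.1, 2926.2 and 3842.1, MT1F and MT1G. The genes are near-identical and every one of these 6 was read by a probe set of a type that can cross-hybridize, so they are uncertain as separate measurements, and the second MT1E probe set gave 0.21. After quantile or cyclic loess normalization 5 of 6 stayed at 1.5-fold.

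Promoters were found for 3 of the 6, MT2A, MT1H and MT1X, and those of MT2A and MT1H are shown for their repeated metal response element core. Capitals mark TGCNCNC on either strand, overlapping matches counted. MT2A (chr16:56608334-56608633, + strand) and MT1H (chr16:56669564-56669863, + strand, both GRCh38.p14) hold 8 matches each and MT1X 4. At least 8 occurred in 0.0879% of all promoters and at least 4 in 2.78%, while 55.2% held the short core once or more. It was held by 64.1% of the promoters of bright genes, 60.9% of genes 1.5-fold higher and 66.4% of genes 1.5-fold lower. The THBS1 promoter held 5 matches, more than that of MT1X.
MT2A: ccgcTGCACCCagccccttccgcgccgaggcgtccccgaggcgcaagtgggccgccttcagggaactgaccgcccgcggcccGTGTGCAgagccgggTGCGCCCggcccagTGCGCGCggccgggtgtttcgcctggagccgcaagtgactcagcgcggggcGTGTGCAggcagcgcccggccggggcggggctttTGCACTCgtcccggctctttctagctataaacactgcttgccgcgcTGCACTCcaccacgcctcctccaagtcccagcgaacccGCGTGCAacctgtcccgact
MT1H: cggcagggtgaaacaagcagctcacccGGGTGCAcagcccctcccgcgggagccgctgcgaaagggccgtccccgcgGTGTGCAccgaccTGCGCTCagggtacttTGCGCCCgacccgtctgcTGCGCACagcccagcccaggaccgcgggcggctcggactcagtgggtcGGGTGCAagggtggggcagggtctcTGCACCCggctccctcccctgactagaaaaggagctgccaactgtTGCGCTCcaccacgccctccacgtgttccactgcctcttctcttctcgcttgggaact

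**Figure D4:**
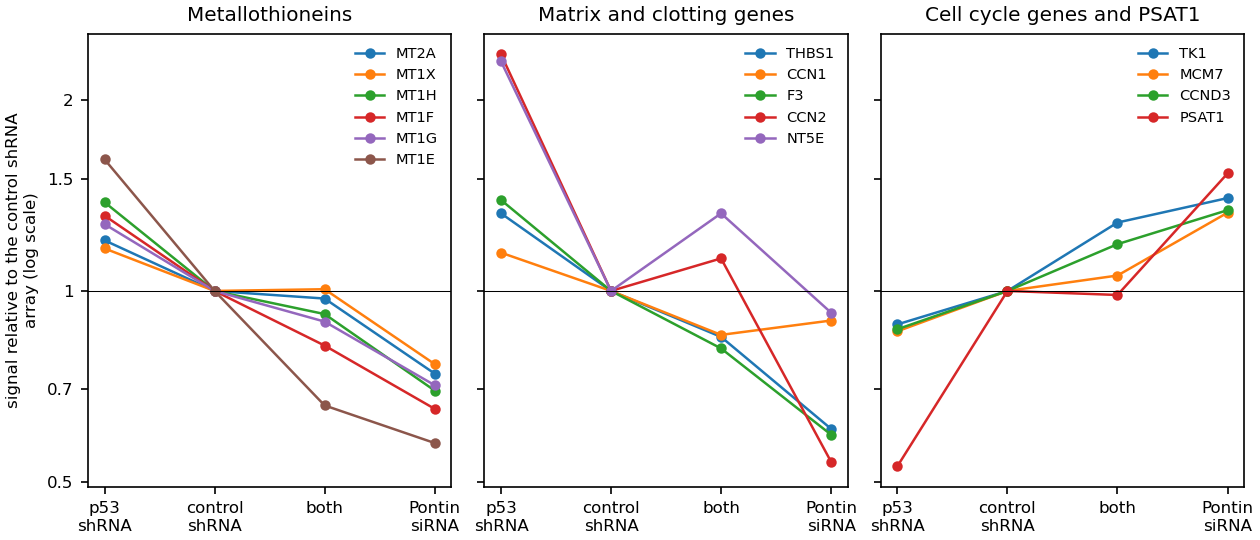
Signal on each array relative to the control shRNA array (log axis, control at 1), 1 array a group with no error bar, for 6 metallothioneins, 5 matrix and clotting genes and 4 others. Each metallothionein lies above 1 with p53 shRNA and below 1 with Pontin siRNA, CCN2 spans the widest range of the middle panel, and TK1, MCM7, CCND3 and PSAT1 run the other way.

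The opposite arrangement, low with p53 shRNA and high with Pontin siRNA, held for PSAT1, encoding phosphoserine aminotransferase of serine synthesis. PSAT1 stood at 709.3 on the control array, 375.0 with p53 shRNA, 1087.4 after Pontin siRNA and 699.0 with both. The combined array was back near the control, and the difference between the single knockdowns was -1.54, with -1.52 on the second probe set. Other serine and one-carbon genes were closer: PHGDH, encoding the enzyme before PSAT1 in the pathway, was at -0.42, and the brightest, MTHFD2 and TYMS, at 0.09 and -0.08. None of 8 was above the control with p53 shRNA, and 3 of 8 were with Pontin siRNA, beside 3786 and 3876 of all 7752 bright genes. These counts too come from a list chosen with earlier results known, and they support nothing further. The integrated stress response and amino acid list shares regulators with serine synthesis. It had 0 of 23 genes 1.5-fold apart, beside 5.38% of all bright genes, and a median of -0.14. The PSAT1 promoter had 0 matches to the CEBP-ATF element TGATGNAAN, which was held by 1.59% of the promoters of bright genes.

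CGA, encoding the alpha subunit shared by glycoprotein hormones, was at 427.2, 219.0, 597.2 and 335.9, a difference of -1.45. TGFBR3, encoding the TGF-beta co-receptor betaglycan, was at 129.8, 74.0, 198.2 and 130.6, a difference of -1.42, and -0.67 on its second, dimmer probe set. HIPK2, a kinase gene of the DNA damage response, was at 139.0, 94.8, 215.4 and 158.6, a difference of -1.18. For all 3, the 2 single knockdown arrays were the lowest and the highest of the 4. CSGALNACT1, a chondroitin sulfate synthesis gene, was at -1.21 and SLC46A3, a lysosomal transporter gene, at -1.24 with the same order.

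Among established targets of wild-type p53, 2 of 17 bright members were 1.5-fold lower with p53 shRNA, beside 2.15% of all bright genes, none was higher, and the median was -0.05. ZMAT3, an RNA-binding zinc finger gene, was at 306.4, 178.0, 417.0 and 350.6, a difference of -1.23, and all 5 of its probe sets were below 0. TNFRSF10B, encoding the death receptor DR5, was at 525.5, 363.6, 566.9 and 508.3, a difference of -0.64. In both the p53 shRNA array was the lowest of the 4. DDIT4L, a homologue of the mTORC1 inhibitor gene DDIT4, is not in the list and was at 265.5, 141.5, 343.9 and 125.1, a difference of -1.28. Of 21 bright genes that mutant p53 has been reported to raise, 2 were 1.5-fold higher with p53 shRNA (3.22% of all bright genes were), EGR1 at 0.81 and ID1 at 0.82, and the median was -0.02.

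The G1/S and DNA replication list had the lowest median of the lists with over 20 bright members, -0.26, with 30 of 36 members below 0. Of all 7752 bright genes 3876 were below 0. At 1.5-fold, 3 were lower (8.33% of the list, beside 5.38% of all bright genes apart in either direction) and none was higher. TK1, encoding thymidine kinase, was at 1914.4 on the control array, 1695.3 with p53 shRNA, 2683.6 after Pontin siRNA and 2455.3 with both, a difference of -0.66. MCM7, a subunit gene of the replicative helicase, was at 835.7, 721.7, 1110.8 and 883.9, a difference of -0.62, and CCND3, encoding cyclin D3, at 350.9, 305.3, 470.7 and 416.0, also -0.62. In each, p53 shRNA was slightly below and Pontin siRNA above the control. Over the list the median was -0.17 for the p53 shRNA array and 0.09 for the Pontin siRNA array against the control, which both comparisons share. The brightest members were close together, PCNA at -0.02 and RRM2 at -0.34, and MCM4 lay on the other side at 0.42.

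The MCM7 promoter is shown for its E2F motif. Capitals mark TTTNGCGC on either strand in chr7:100101348-100101647 (- strand, GRCh38.p14), with 1 match. The motif was held by 13 of 32 bright list members with a promoter in the table, 40.6%. It was held by 3.47% of the promoters of bright genes and by 1.83% of all. Among genes 1.5-fold apart it was held by 1.93% of the promoters of higher genes and 2.19% of those of lower genes. The list share therefore describes the list and not the genes apart. TK1 and CCND3 had 0 matches in this window.
MCM7: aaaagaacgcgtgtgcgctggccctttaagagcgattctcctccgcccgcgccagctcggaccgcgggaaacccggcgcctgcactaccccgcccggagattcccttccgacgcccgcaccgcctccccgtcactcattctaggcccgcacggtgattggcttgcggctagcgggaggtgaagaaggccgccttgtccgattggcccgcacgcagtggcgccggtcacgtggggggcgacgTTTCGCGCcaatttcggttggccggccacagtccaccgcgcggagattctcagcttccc

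The G2/M and mitosis list had 0 of 34 bright genes 1.5-fold apart, beside 5.38% of all bright genes. Of the 34, 20 were below 0, beside 3876 of all 7752 bright genes, and the list median was -0.06. With cross-hybridizing probe set types left out its median was 0.01.

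Hypoxia response and glycolysis genes leaned the other way, with 20 of 27 bright members (74.1%) above 0, beside 49.9% of all bright genes, and a median of 0.27. At 1.5-fold, 4 were higher, beside 3.22% of all bright genes, and none was lower. EGLN3, an oxygen-sensing prolyl hydroxylase gene, was at 87.1 on the control array, 182.1 with p53 shRNA, 91.3 after Pontin siRNA and 190.6 with both, a difference of 1.0. BNIP3, a mitophagy receptor gene, was at 1881.8, 2700.1, 1649.0 and 2447.9, a difference of 0.71, with 0.89 on its other probe set. In both genes the arrays with p53 shRNA were above those without it, with no overlap. VEGFA, encoding the angiogenic factor, showed that order too, at 837.5, 1244.2, 805.5 and 1428.2 and a difference of 0.63, but its dimmer probe sets gave 0.00, -0.12 and 0.49. ADM, encoding the vasodilator adrenomedullin, was at 0.64. The brightest glycolytic genes, LDHA and GAPDH, were at 0.14 and -0.01, and PKM was on the other side at -0.46. The hypoxia response element core ACGTG had 0 matches in the EGLN3 promoter and 2 in that of BNIP3. It was held by 30.0% of promoters of genes 1.5-fold higher, 24.8% of those lower and 28.6% of those of bright genes.

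Of 6 bright IGF axis genes, the binding protein genes IGFBP5 and IGFBP2 were 1.5-fold higher, beside 3.22% of all bright genes. The list was chosen with earlier results of these data known, so this count supports nothing further. IGFBP5 was at 1564.7, 2279.5, 1312.3 and 1940.0, a difference of 0.80, and IGFBP2 at 0.62. Both were highest on the arrays with p53 shRNA. Among 6 bright NF-kB targets, TNFAIP3, which encodes the inhibitor A20, was lower with p53 shRNA at -0.62, with 194.8, 167.5, 257.8 and 262.5. Its highest signals were on the 2 Pontin siRNA arrays. NFKBIA, encoding IkB-alpha, was at -0.47, and the list median was -0.22.

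**Figure D5:**
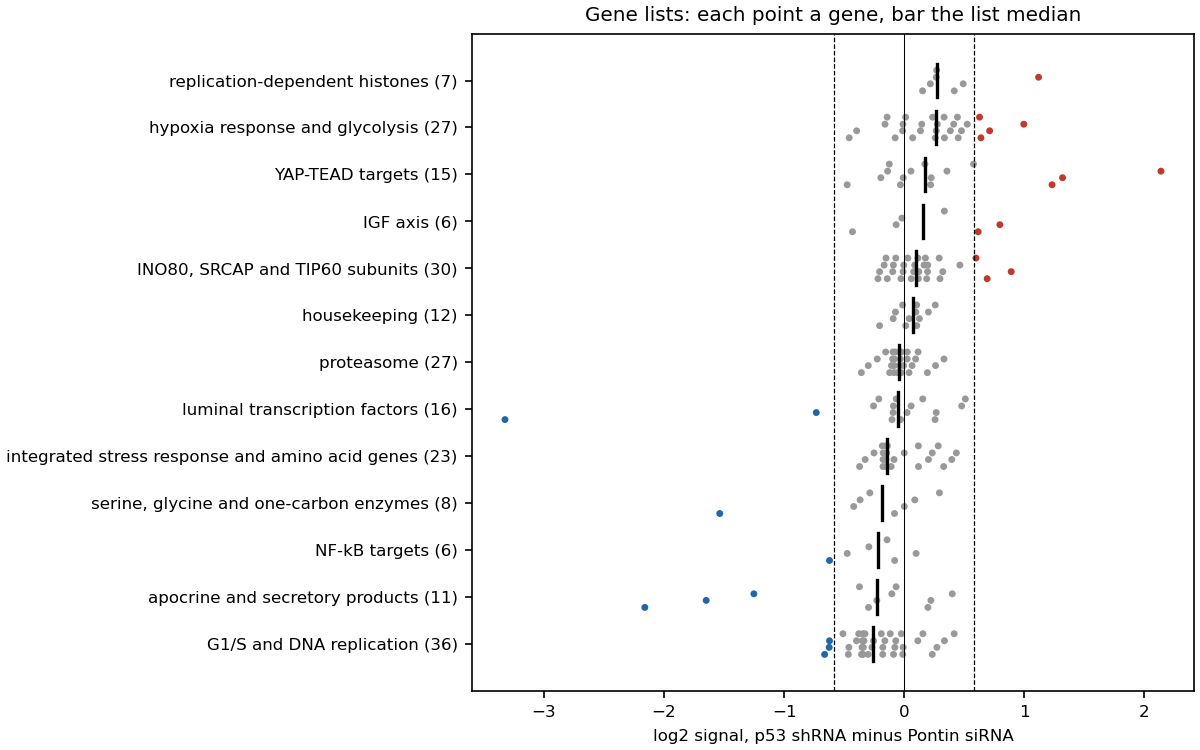
Log2 difference of the p53 shRNA array minus the Pontin siRNA array (horizontal axis) for the bright members of 13 gene lists, their number in parentheses; each point is a gene, the black bar the list median, and dashed lines mark 1.5-fold. The G1/S list has its median at -0.26 and the hypoxia list at 0.27, while proteasome and housekeeping genes lie around 0 with no member past 1.5-fold.

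Several lists had no member or few members 1.5-fold apart, beside 5.38% of all bright genes. In lists of this size a count of 0 or 1 is close to that share. Of the proteasome genes 0 of 27 were 1.5-fold apart, with a median of -0.04, and the brightest, PSMB1 and PSMA7, were at 0.03 and -0.03. Of housekeeping genes 0 of 12 were, with a median of 0.07, and of HER2 amplicon and ERBB receptor genes 0 of 15, with a median of 0.01. The housekeeping median was -0.0004 after quantile normalization and the HER2 median -0.003 after cyclic loess. The unfolded protein response had 0 of 18, with 14 below 0 and a median of -0.09, and the type I interferon response 0 of 10. Of all 7752 bright genes 3876 were below 0. The share was higher in ribosome biogenesis, where 9.38% of 32 genes were 1.5-fold apart, beside 5.38% of all bright genes. BYSL, a small-subunit processing factor gene, was lower at -0.71. The RNA polymerase I subunit genes POLR1A and POLR1C were higher at 0.66 and 0.59, but their probe sets disagreed. The second POLR1C probe set, with a mean signal of 330.1, gave -0.005, and the dimmer POLR1A probe sets gave -0.25 and 0.05. Among 20 chaperone and heat shock genes 10.0% were 1.5-fold apart, also above 5.38%. HSPB1, encoding a small heat shock protein, was lower with p53 shRNA at -0.64. HSF1, the gene of the heat shock transcription factor, was higher at 0.64. In cholesterol and fatty acid synthesis 1 of 20 was apart, NSDHL at 0.73, although its second probe set gave 0.04.

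Other probe sets of the same gene read the same 2 RNAs and so check the probe, not the culture. Over all bright genes 2971 had another bright probe set, and it had the same sign in 65.1% of them. Among the 250 higher genes 96 had one, with the same sign in 86 and 1.5-fold or more in the same direction in 40. Among the 167 lower genes 40 had one, with the same sign in 34 and 1.5-fold in 13. Where the p53 shRNA array stood alone, 1 of 10 such genes was 1.5-fold apart the same way and 1 the opposite way, and where the Pontin siRNA array stood alone 0 of 3. For the 87 genes higher in the Pontin siRNA order it was 19 of 34, and for the 28 lower 5 of 12. In the p53 shRNA order it was 7 of 13 for the 22 higher genes and 2 of 4 for the 33 lower genes. Only 2 of those 4 lower genes had the same sign on the other probe set. In CISD2, where the Pontin siRNA array stood alone, probe sets disagreed. Its brightest probe set, with 269.4, 233.1, 403.4 and 277.2, gave -0.79 and its second bright probe set 0.58. TLE5, encoding a Groucho-related corepressor, was at 202.1, 108.3, 236.2 and 235.7, with the p53 shRNA array standing alone. MRPS34, a mitochondrial ribosome gene, was at 1070.8, 914.2, 1512.4 and 1008.7, with the Pontin siRNA array standing alone. Neither had a second probe set to compare.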

How the data were processed

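RNA of 4 SK-BR-3 cultures was measured on Affymetrix arrays of 54675 probe sets, 1 array for each group. The deposited values are intensities, which the submitters' processing notes name as MAS5 output without a version; they are linear. Trimmed of the top and bottom 2%, each array averaged 150.0. The number of arrays limits the precision.

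Of the probe sets, 41091 had 1 gene symbol in the platform annotation, 1801 several and 11777 none listed, and 41037 of the first matched a gene table. Signals of 0 (14 in all) were set to 0.1, and log2 was taken with no further normalization or pseudocount. Each gene was read from its brightest single-symbol probe set by mean log2 signal, and a mean signal of 110 was required. Differences were formed in Python 3.11.15 (pandas 2.3.3, numpy 2.4.6), with limma 3.58.1 in R 4.3.3 for the alternative normalizations. The steps were checked on simulated data. The alternatives were median centring, quantile and cyclic loess normalization, a pseudocount of 16, an arithmetic mean signal, limits of 500 and 16, the mean over all of a gene's probe sets (5194 genes then reach the limit), probe sets without cross-hybridizing types, other limits of place and, added after the data were seen, a mean over the 2 arrays compared. Promoters (RefSeq, GRCh38.p14) were found for 6543 bright genes.

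The genes compared and the 35 gene lists were chosen with earlier results of these data known. Counts over any list therefore describe its members and support nothing further. Genes were named by rule: RUVBL1 and RUVBL2, the 15 highest and 15 lowest, list members 1.5-fold apart, up to 6 for each place, the genes at the signal limit, and for lists the 2 brightest members. The metallothioneins, THBS1, CCN1, AGR2, PHGDH, MCM4, PKM, CAV1, PLAU, IGFBP3 and TFPI2 were named after their values were seen. The target transcript of the p53 shRNA is not analysed here.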

Additional observations from a re-analysis of the deposited data

How the results depend on the processing

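None of the 72 genes named by rule changed sign under any alternative that gave it a value. With a pseudocount of 16, 6 of 72 dropped under 1.5-fold (ACTR8, HSF1, IGFBP2, POLR1A, POLR1C and TNFAIP3), and 8 of 45 did so as means over all probe sets of the gene, dim ones included (ESRP1, IGFBP5, MCM7, NSDHL, NUP58, POLR1C, TNFAIP3 and VEGFA). Median centring, quantile and cyclic loess normalization moved none of these 72 genes across 1.5-fold and left 59.0% to 61.0% of the genes apart higher with p53 shRNA.

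Counts moved with the genes admitted. At a signal limit of 500, 88 genes were 1.5-fold higher and 34 lower (72.1% higher), and 7 and 2 at 2-fold; at 16 these were 746 and 651 (53.4%), and 195 and 176. As means over all probe sets, where 5194 genes reach the limit, 127 were higher and 135 lower (48.5%), with 20 at 2-fold higher; with the pseudocount, 21 were 2-fold higher. The Pontin siRNA order held 52 genes at a limit of 500, 214 at 16, 57 as means over probe sets and 15 among the genes 2-fold apart. The p53 shRNA order held 11, 179, 36 and 15 genes in the same settings, 32 without cross-hybridizing probe set types and 33 with limits of place at 0.25 and 0.75. Genes with both other arrays between numbered 15, 128, 34 and 15, and 102 with those limits of place.

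List medians near 0 changed sign. As means over probe sets they were -0.0874 for the HER2 amplicon, -0.0389 for INO80, SRCAP and TIP60 subunits, -0.12 for cholesterol and fatty acid synthesis, 0.0392 for epithelial state and junctions, -0.0729 for housekeeping, 0.0238 for luminal transcription factors, -0.0116 for secreted inhibitors and 0.0715 for wild-type p53 targets. Without cross-hybridizing types they were 0.0128 for G2/M, -0.0432 for cholesterol synthesis, 0.0795 for luminal markers, 0.0789 for genes raised by mutant p53 and 0.0536 for ubiquitin-like activating enzymes. At a limit of 500 they were 0.15 for those enzymes and 0.12 for wild-type p53 targets (0.0164 at 16). Cyclic loess gave -0.003 for the HER2 amplicon and -0.0031 for cholesterol synthesis, and quantile normalization -0.0004 for housekeeping genes. The G1/S median stayed below 0 and the hypoxia median above 0 in every setting run, at -0.17 and 0.14 as means over probe sets. The cause of these shifts was not tested beyond the genes each setting admits.

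No paired analysis was possible because the contrast has 1 array a side, the 2 arrays differ in both treatments and the labels number no replicates. A model of both treatments without interaction over the 4 arrays was not run; its estimate of this contrast equals the difference given, by its construction. Signal limits what can be read: dim probe sets vary more, and genes under the limit were not compared.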

Other observations

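Below the signal limit, 2 secreted protein genes stood far apart. IGFBP3, encoding the main carrier of insulin-like growth factors in blood, had a mean signal of 81.4, with 48.8 on the control array, 232.0 with p53 shRNA, 26.3 after Pontin siRNA and 147.2 with both. Its difference was 3.14, and 2.86 on its second probe set. TFPI2, a serine protease inhibitor gene, was at 39.2, 120.8, 53.6 and 130.9, a difference of 1.17, and 1.91 on its second probe set. In both genes the 2 arrays with p53 shRNA were above the 2 without it. Under a limit on the arithmetic mean signal IGFBP3 is among the genes compared.

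CAV1, encoding the caveolar coat protein caveolin 1, was at 229.9, 303.0, 180.8 and 175.8, a difference of 0.74, with 0.22 on its second probe set. PLAU, encoding the plasminogen activator urokinase, was at 177.8, 247.9, 147.3 and 229.5, a difference of 0.75, with 0.14 on its second, dim probe set. The combined array lay with the Pontin siRNA array for CAV1 and with the p53 shRNA array for PLAU.

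HDGFL3, encoding a growth factor related to HDGF, was read by 8 probe sets, all below 0, with differences of -0.77 to -2.67. Its brightest was at 221.7 on the control array, 82.1 with p53 shRNA, 204.3 after Pontin siRNA and 114.2 with both. The p53 shRNA array was the lowest and the combined array the next lowest.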
